A study of Homo sapiens with 102 samples.

Results

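The high mobility group (HMG) genes encode small, abundant proteins that bind chromatin without being histones. Their transcripts were followed in K562 cells under single drugs and drug pairs. The group held 8 genes, HMGA1, HMGB1, HMGB2, HMGB3, HMGN1, HMGN2, HMGN3 and HMGN4, out of 24965 genes in the count table. They were chosen by name, with each symbol matched to its Ensembl identifier. HMGA1 was in addition selected on measured values: in earlier results of these data it stood out in the dT screen for YM115 and for imatinib with YM115. Its dT differences from DMSO are therefore given as a description, and tests of HMGA1 against in-screen DMSO are given for the Bio screen.

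K562 is an established chronic myelogenous leukaemia line with the BCR-ABL fusion gene. Single cells were enclosed in picolitre droplets (Combi-Seq) with a pair of compounds and incubated for 12 h. The compounds were DMSO (the solvent), Imatinib (which blocks the BCR-ABL kinase), Trametinib (an inhibitor of the kinase MEK) and YM115, a label spelling for what the study calls YM155, an inhibitor of survivin expression. Every ordered pair of the 4 was made, giving 16 conditions in each of 2 screens, dT and Bio, which differed in the barcoding scheme, with 3 runs of each. DMSO paired with DMSO was the in-screen control, a drug paired with DMSO was a single drug treatment, and each screen had 3 further DMSO controls made separately. All groups share 1 cell line, and no label says that the runs came from separate cultures, so p-values measure the spread between these libraries.

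HMG proteins fall into 3 families. HMGA1, the HMGA member measured here, binds the minor groove of AT-rich DNA through AT-hooks and helps to assemble transcription factors at enhancers and promoters. It is abundant in embryonic and proliferating cells and in many tumours. HMGB1, HMGB2 and HMGB3 carry paired HMG boxes that bend DNA, and HMGB1 also acts as a signal outside the cell. HMGN1, HMGN2, HMGN3 and HMGN4 bind the nucleosome core and loosen the packing of chromatin, in competition with linker histones.

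All 8 genes were annotated as protein coding, with positions on GRCh38. HMGA1 lies on chromosome 6, 34236873 to 34246231, plus strand. HMGB1 lies on chromosome 13, 30456704 to 30617597, HMGB2 on chromosome 4, 173331695 to 173335125, and HMGN1 on chromosome 21, 39342315 to 39349647, all on the minus strand. HMGB3 lies on chromosome X, 150980509 to 150990775, and HMGN2 on chromosome 1, 26472450 to 26475972, both on the plus strand. HMGN3 lies on chromosome 6, 79201245 to 79234738, minus strand, where the antisense gene HMGN3-AS1 overlaps it. HMGN4 lies on chromosome 6, 26538405 to 26546254, plus strand. Reads were counted per gene, so all starts of a gene entered 1 value.

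RefSeq promoter sequence (GRCh38.p14, the 250 bases before a start) was found for 7 of the 8 genes, with 11 starts in all; HMGB2 was not in that set. Of these, 4 are shown: both starts of HMGA1, by far the most abundant member, that of HMGN1, a member of middling level, and that of HMGN4, which had no count in the Bio screen. Capitals mark 4 kinds of motif on either strand, none of which contains another. The GC box, bound by factors of the Sp family, was searched as GGGCGG. For the CCAAT box, bound by the factor NF-Y, the search used CCAAT itself, with no flanking bases. The E-box, bound by factors such as Myc, was searched as CACGTG. For the TATA box near the start of some genes, the letters searched were TATAAA. The windows are chr6:34236623-34236872 and chr6:34238541-34238790 (plus) for HMGA1, chr21:39349089-39349338 (minus) for HMGN1 and chr6:26538116-26538365 (plus) for HMGN4.
HMGA1 start 1: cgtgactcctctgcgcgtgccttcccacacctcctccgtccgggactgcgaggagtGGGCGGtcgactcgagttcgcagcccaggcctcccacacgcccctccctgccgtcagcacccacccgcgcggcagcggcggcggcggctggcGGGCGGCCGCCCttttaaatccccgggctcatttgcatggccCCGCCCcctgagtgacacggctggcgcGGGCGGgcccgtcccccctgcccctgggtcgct
HMGA1 start 2: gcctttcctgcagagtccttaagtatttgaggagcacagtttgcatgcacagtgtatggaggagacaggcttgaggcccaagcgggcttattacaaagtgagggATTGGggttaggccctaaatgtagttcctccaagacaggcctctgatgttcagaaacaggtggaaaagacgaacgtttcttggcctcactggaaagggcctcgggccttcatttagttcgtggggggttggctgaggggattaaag
HMGN1: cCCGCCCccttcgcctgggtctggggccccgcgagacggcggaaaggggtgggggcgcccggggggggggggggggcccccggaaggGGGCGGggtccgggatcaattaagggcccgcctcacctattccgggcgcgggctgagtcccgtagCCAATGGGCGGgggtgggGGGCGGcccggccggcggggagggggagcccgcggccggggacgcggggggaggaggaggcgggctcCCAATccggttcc
HMGN4: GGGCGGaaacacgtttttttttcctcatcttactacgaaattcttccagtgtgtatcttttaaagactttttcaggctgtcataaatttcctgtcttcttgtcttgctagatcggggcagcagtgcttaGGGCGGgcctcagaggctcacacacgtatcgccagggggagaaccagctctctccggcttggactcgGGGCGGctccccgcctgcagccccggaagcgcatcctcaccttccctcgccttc
The first HMGA1 window held 5 GC boxes at 74.8% G and C, and the second held 0 GC boxes and 1 CCAAT box at 51.2%. The HMGN1 window held 4 GC boxes and 2 CCAAT boxes at 80.4%, and the HMGN4 window 3 GC boxes at 54.8%. Among all 35116 promoter windows of this length, 42.6% held a GC box, 32.01% a CCAAT box, 6.34% an E-box and 10.7% a TATA box. The counts do not show which start was used.

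Depth is the sum of counts of a library. It ranged from 127042 to 759756 in the 48 dT libraries and from 81806 to 780143 in the 44 Bio libraries that were kept. A further 4 Bio libraries, all 3 runs of Imatinib with Imatinib and run 1 of DMSO_Trametinib, had 438 to 808 detected genes and were left out. The separate controls had 256671 to 458945 counts in dT and 35742 to 89347 in Bio. Among markers of K562, the gamma-globin gene HBG2 was counted in 48 of 48 dT and 44 of 44 Bio libraries, at a mean of 38757 and 27816 CPM (counts scaled to a common library total). The zeta-globin gene HBZ was counted in 48 and 41 libraries and GATA1, an erythroid transcription factor, in 38 and 24. The receptor genes TFRC and EPOR were sparser, with a count in 15 and 3 dT libraries and in 6 and 1 Bio libraries. Of 9 markers of T cells, B cells and fibroblasts, 4 were detected in dT and 6 in Bio, at a median summed level of 0 CPM and a highest of 666 and 1982 CPM. Pooled droplets hold cells and RNA in unknown amounts, so fewer transcripts per cell and fewer cells that hold them cannot be told apart.

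HMGA1 was the leading HMG transcript in both screens. Its level was 7881 ± 2101 CPM in dT (SD, n = 48) and 7741 ± 2958 CPM in Bio (SD, n = 44), and it was counted in every library. That is 0.788% and 0.774% of all counts, the 15th and the 17th highest gene by mean CPM. HMGB2 came next, with 2033 ± 1366 CPM in dT and 964 ± 1137 CPM in Bio, counted in 48 of 48 and 34 of 44 libraries. HMGA1 lay above HMGB2 in 48 of 48 dT and 44 of 44 Bio libraries.

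The other 6 members were far lower. HMGB1 had 136 ± 101.5 CPM in dT and 110 ± 133 CPM in Bio, and was counted in 48 of 48 and 31 of 44 libraries. HMGN1 had 104 ± 150 CPM in dT (46 of 48 libraries) and 196 ± 316 CPM in Bio (30 of 44 libraries). HMGN2 had 59.7 ± 105 CPM in dT (41 of 48) and 28.0 ± 47.2 CPM in Bio (26 of 44). HMGB1, HMGN1 and HMGN2 overlapped widely, with SDs near or above their means, and their order cannot be fixed from these libraries. HMGB3 was counted in 22 of 48 dT libraries and in 1 of 44 Bio libraries, HMGN3 in 13 and 2, and HMGN4 in 9 and 0. Per kilobase of exon, HMGA1 and HMGB2 kept the first and second place in both screens. Their means were 3387 and 733 CPM per kb in dT and 3326 and 348 in Bio. The libraries were made from transcript ends, so counts need not scale with exon length, and this ranking is a description only.

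**Figure D1:**
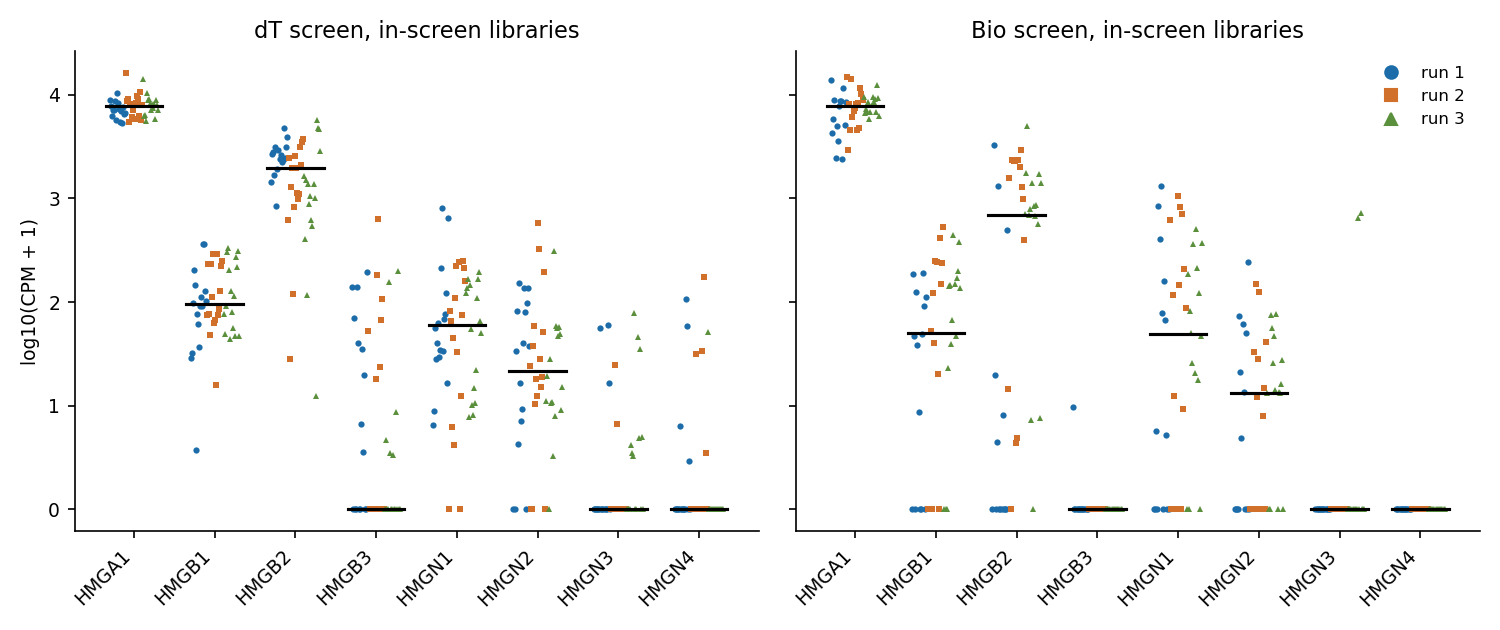
Level of each HMG gene in every library of the dT and Bio screens, on a log10 axis of CPM + 1, with 1 point per library, shapes and colours for the 3 runs and a bar at the median of a gene. HMGA1 lies in a narrow band at the top, with a mean of 7881 CPM in dT and 7741 CPM in Bio, HMGB2 spreads from 0 to 5665 CPM, and HMGB3, HMGN3 and HMGN4 sit at 0 in most libraries.

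Some members share sequence with other genes, mostly processed pseudogenes, and such reads cannot be assigned with certainty. Of the 59-base stretches of each transcript, 26.4% of HMGN2, 13.7% of HMGB1, 12.5% of HMGN1 and 5.33% of HMGA1 also occur in another gene, against 2.54% of HMGB3, 0.0546% of HMGB2 and 0 of HMGN3 and HMGN4. In the last 500 bases of the transcript these shares were 14.7% for HMGN2, 5.20% for HMGA1, 0.905% for HMGN1 and 0 for the other members. HMGB1 stood apart in the counts: its pseudogenes took 45.3% of the counts of HMGB1 and its pseudogenes together in dT and 43.5% in Bio, led by HMGB1P39. For HMGA1 and HMGB2 that share was 0.266% and 0.264% in dT. How reads were divided between HMGB1 and its pseudogenes is not given in the sources used here.

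HMGA1 was higher in in-screen DMSO than in most drug libraries. In dT the runs of DMSO_DMSO had 8898, 16379 and 14215 CPM. DMSO_DMSO ranked 2nd, 1st and 1st of the 16 libraries of its run. The other 45 libraries averaged 7529 ± 1419 CPM against 13164 ± 3850 CPM, a log2 ratio of -0.81, and 36 of them lay below the lowest DMSO_DMSO library.

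Mean levels under single drugs differed less from each other than from DMSO_DMSO in dT. Under YM115 alone the lowest, median and highest of 6 libraries were 5395, 5688 and 7165 CPM, all below DMSO_DMSO. The share of all genes that lay below DMSO_DMSO in this way was not counted in dT, so nothing is read from it. Imatinib alone gave 6305, 7911 and 10481 CPM, and trametinib alone gave 5880, 6714 and 9031 CPM, each with 1 of 6 libraries inside the range of DMSO_DMSO. YM115 alone was the lowest condition by mean level, at 5957 ± 674 CPM (SD, n = 6).

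The 3 pairs of different drugs overlapped the single drugs in dT. Imatinib with YM115 had a lowest, median and highest of 7108, 8603 and 10553 CPM, so 3 of 6 libraries reached the range of DMSO_DMSO. Trametinib with YM115 had 5723, 7414 and 9031 CPM, and imatinib with trametinib had a mean of 7440 ± 1315 CPM (SD, n = 6). The same drug from both sources gave 8708, 8029 and 8901 CPM for imatinib, 5495, 9759 and 7379 CPM for trametinib, and 6618, 7915 and 7109 CPM for YM115. Here 1 of 3 imatinib and 1 of 3 trametinib libraries lay above the lowest DMSO_DMSO library.

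Fitted log2 differences of HMGA1 from DMSO_DMSO in dT were -1.11 for YM115, -0.70 for imatinib, -0.81 for trametinib, -0.73 for imatinib with trametinib, -0.45 for imatinib with YM115 and -0.74 for trametinib with YM115. These values come from the contrasts that selected the gene and carry no test. The corresponding shares of all 6263 genes called in edgeR's fit (adjusted p under 0.05) were 0.016%, 0.0%, 0.0%, 0.0%, 0.016% and 0.016%, at most 1 gene each, and nothing is read from them for HMGA1. Where the edgeR count was 0, 848 (imatinib), 776 (trametinib) and 845 genes (the pair) had an unadjusted p under 0.05, and DESeq2 called 1009, 938 and 970. All genes leaned the other way, with a median log2 difference of 0.23 to 1.11 over these 6 contrasts. DMSO_DMSO was also the shallowest condition, with 184353 ± 12460 counts per library in dT and 114694 ± 32758 in Bio (SD, n = 3). Across libraries HMGA1 and depth had a Spearman rho of -0.17 in dT (n = 48), given as a description, and of -0.06 without the 3 DMSO_DMSO libraries (n = 45); the part of depth in the difference was not tested.

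**Figure D2:**
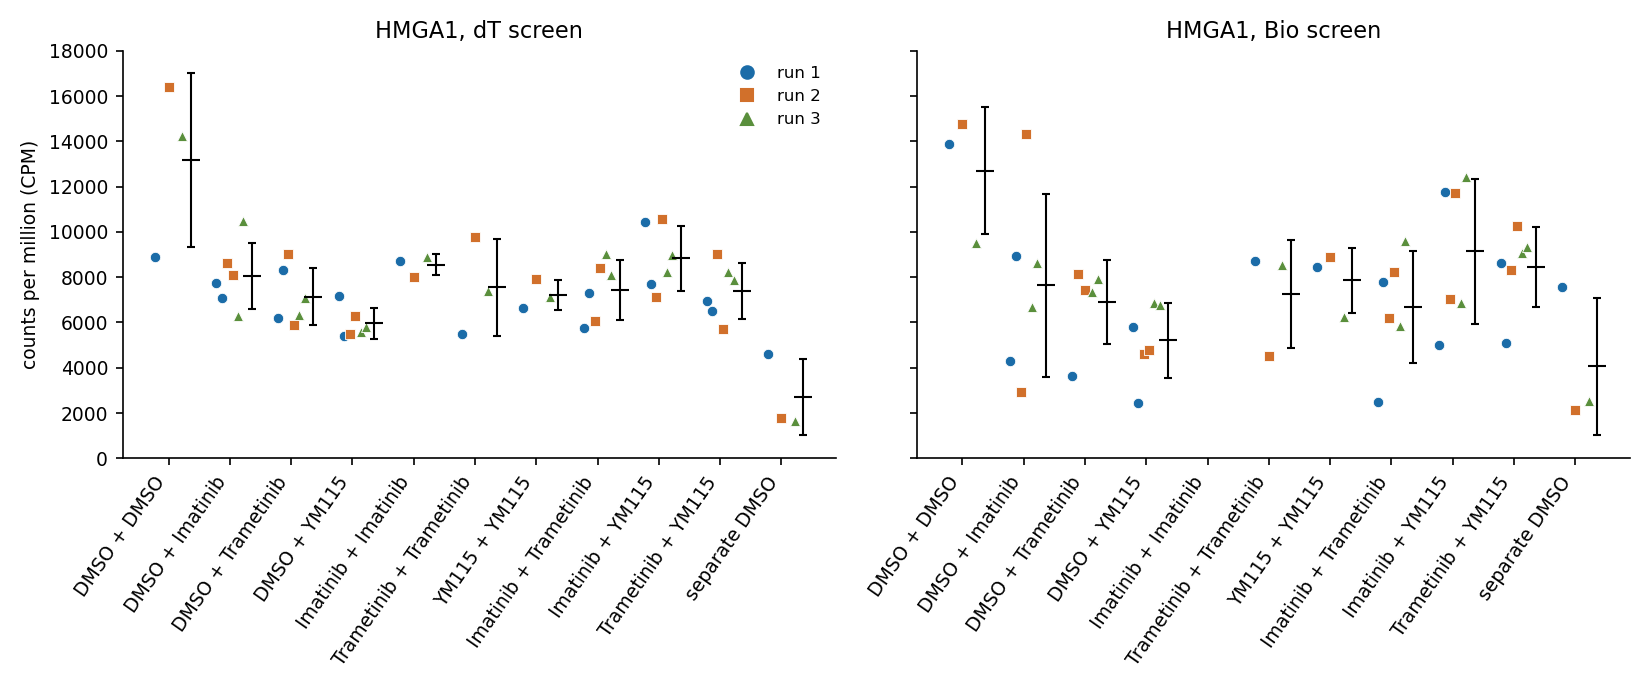
HMGA1 level (CPM) by unordered drug condition in the dT and Bio screens, 1 point per library in the shape and colour of its run, with the mean and SD beside each condition and the separate DMSO controls at the right. Among in-screen conditions with libraries kept, DMSO_DMSO has the highest mean in both screens, 13164 CPM in dT and 12709 CPM in Bio. YM115 alone has the lowest of them, at 5957 and 5206 CPM.

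The Bio screen, whose values did not select the gene, gave a similar order. DMSO_DMSO had 13866, 14764 and 9498 CPM and ranked 1st of 14, 1st of 15 and 3rd of 15 libraries in its runs. The other 41 libraries averaged 7377 ± 2650 CPM, a log2 ratio of -0.78 to the 12709 ± 2817 CPM of DMSO_DMSO, and 35 of 41 lay below its lowest library. YM115 alone had a lowest, median and highest of 2428, 5283 and 6842 CPM, and 6 of 6 libraries were below DMSO_DMSO. Imatinib alone spanned 2921 to 14332 CPM and trametinib alone 3621 to 8124 CPM (n = 5). The left-out Bio libraries of Imatinib with Imatinib, with 438 to 472 detected genes, had 2965, 4381 and 4362 CPM.

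HMGA1 in Bio was compared with DMSO_DMSO by an exact two-sided permutation test of log2 CPM within runs, with adjustment over 6 conditions. YM115 alone differed by -1.34 on the log2 scale (exact p = 0.037, the smallest this design allows, adjusted p = 0.111). Trametinib with YM115 differed by -0.60, with 5 of 6 libraries below (exact p = 0.037, adjusted p = 0.111). Trametinib alone differed by -0.92 with 5 of 5 libraries below (exact p = 0.0556, again the smallest possible, adjusted p = 0.111). Imatinib alone differed by -0.89 (exact p = 0.148, adjusted p = 0.178) with 5 of 6 libraries below. Imatinib with trametinib differed by -1.02 (exact p = 0.111, adjusted p = 0.167), and imatinib with YM115 by -0.53 (exact p = 0.296, adjusted p = 0.296) with 3 of 6 libraries below. None passed the adjusted threshold, but these tests had little room to pass. For trametinib alone the smallest possible p, 0.0556, lies above the threshold even before adjustment. For the other conditions it is 0.037, so after adjustment none could pass unless nearly all conditions reached their smallest p. The lack of a pass is therefore not read as a lack of difference. All libraries of a single drug below all of DMSO_DMSO was found for 1.49% (imatinib), 1.98% (trametinib) and 1.49% (YM115) of 202 genes counted in at least 90% of Bio libraries, and HMGA1 was in that share for trametinib and YM115.

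In the fit over all genes, HMGA1 in Bio differed from DMSO_DMSO by -1.001 ± 0.42 (SE) for YM115 (adjusted p = 0.387), -0.56 ± 0.43 for imatinib (adjusted p = 0.512) and -0.64 ± 0.45 for trametinib (adjusted p = 0.457). DESeq2 gave -1.32 for YM115 (adjusted p = 0.0387), so that call depends on the tool. The edgeR share called was 0.0% of 3429 genes for each of the 3 single drugs and the 3 pairs in Bio, with 417 to 449 genes under 0.05 before adjustment and 935 to 1071 called by DESeq2. The pairs differed from DMSO_DMSO by -0.49 ± 0.43 (imatinib with trametinib), -0.11 ± 0.43 (imatinib with YM115) and -0.21 ± 0.43 (trametinib with YM115).

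An interaction term asks whether a pair departs from the sum of the changes of its 2 drugs, each without another drug, on the log2 scale. In this fit a drug was scored as present or absent. A drug paired with itself thus counted together with that drug paired with DMSO, unlike in the contrasts above. Imatinib with Imatinib entered in dT only. For HMGA1 all 3 were positive in both screens, with the pair above the sum. Imatinib with YM115 gave 1.18 ± 0.24 (SE) in dT and 1.18 ± 0.53 in Bio, where the adjusted p was 0.248. Trametinib with YM115 gave 1.00 ± 0.24 in dT and 1.02 ± 0.52 in Bio (adjusted p = 0.256), and imatinib with trametinib 0.66 ± 0.24 and 0.57 ± 0.54 (adjusted p = 0.782). The 3 terms of a screen share its DMSO_DMSO libraries. Over all genes 0.527% (trametinib with YM115), 0.431% (imatinib with YM115) and 0.447% (imatinib with trametinib) were called in dT, where the HMGA1 terms rest on the libraries that selected it and carry no test, and 0.525%, 0.0292% and 0.379% in Bio, with 0 HMG genes. The median interaction over all genes was negative, from -1.48 to -1.25 in dT and from -2.04 to -1.22 in Bio.

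Each drug was also scored as present or absent over all in-screen libraries. With imatinib in the mix its level was 8172 ± 1342 CPM (n = 21) against 7656 ± 2544 CPM without (n = 27) in dT, and 7820 ± 3269 CPM (n = 18) against 7686 ± 2789 CPM (n = 26) in Bio. With trametinib it was 7356 ± 1297 CPM (n = 21) against 8290 ± 2508 CPM (n = 27) in dT, and 7351 ± 2084 CPM (n = 20) against 8066 ± 3540 CPM (n = 24) in Bio. With YM115 it was 7368 ± 1512 CPM against 8281 ± 2418 CPM in dT, and 7634 ± 2624 CPM against 7838 ± 3290 CPM in Bio. The Bio drug terms were -0.03 ± 0.20 for imatinib (adjusted p = 0.985), -0.16 ± 0.20 for trametinib (adjusted p = 0.829) and -0.07 ± 0.19 for YM115 (adjusted p = 0.933). With and without groups overlapped for each drug in both screens.

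Each unordered pair of different compounds was made in both listed orders. In dT the HMGA1 levels of the 2 orders overlapped for 6 of 6 couples. In Bio they did not overlap for 3 of 5 couples that could be compared, all with imatinib. DMSO_Imatinib had 4314, 2921 and 6700 CPM, and Imatinib_DMSO had 8951, 14332 and 8606 CPM. Imatinib_YM115 had 5002, 7035 and 6872 CPM, below the 11757, 11728 and 12420 CPM of YM115_Imatinib. Imatinib_Trametinib had 2476, 6175 and 5855 CPM, below the 7794, 8231 and 9583 CPM of Trametinib_Imatinib. Imatinib was the second-listed drug in the lower order for DMSO and the first-listed drug in the lower order for the other 2, so the order of high and low did not follow the place of imatinib. Among the genes counted in at least 90% of libraries, 13.6% of couples in Bio and 11.3% in dT did not overlap. An exact test of 3 against 3 libraries cannot go below p = 0.10. The joint test of listed place over all couples gave an adjusted p of 0.563 for HMGA1 in Bio (21.1% of 2112 genes called) and 0.780 in dT (10.7% of 3930 genes called).

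**Figure D3:**
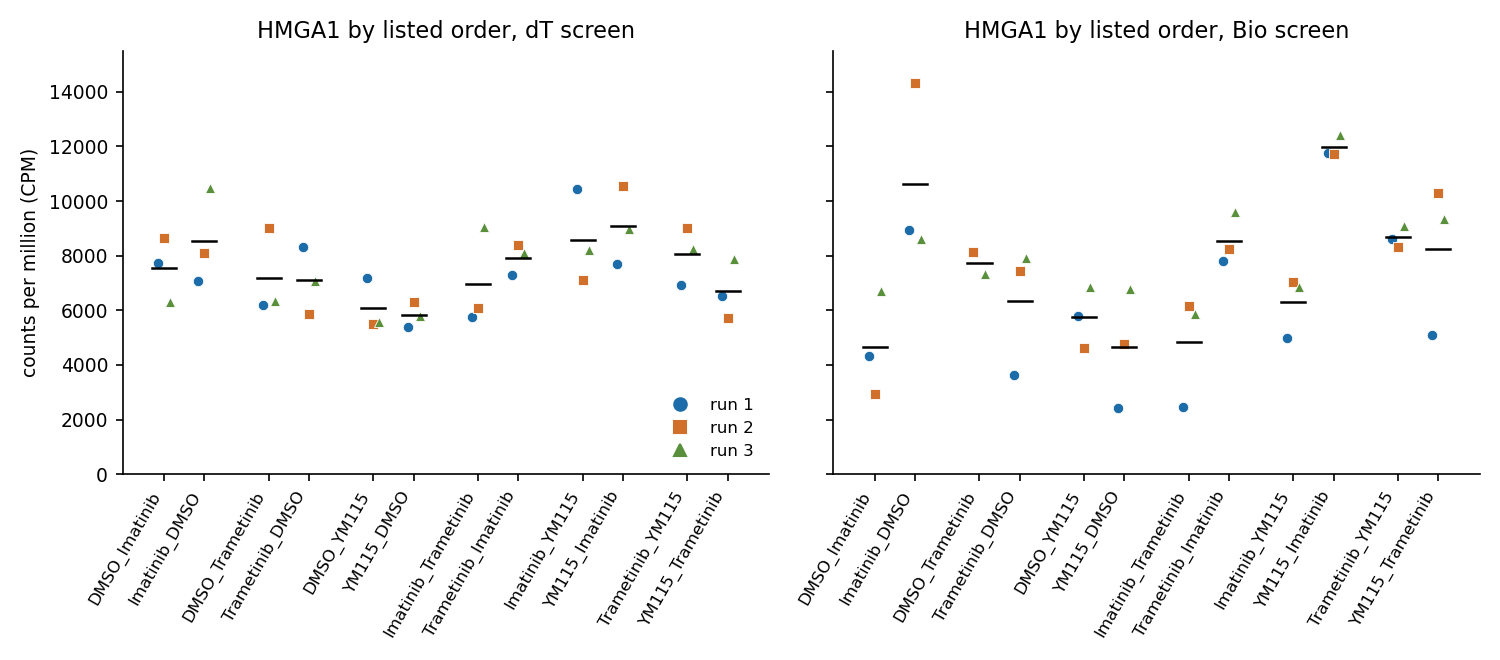
HMGA1 level (CPM) in the 3 runs of each listed order of a drug couple, dT and Bio side by side, 1 point per library in the shape and colour of its run. The orders overlap for all 6 couples in dT and are apart for the 3 imatinib couples in Bio, for example a mean of 6303 CPM in Imatinib_YM115 and 11968 CPM in YM115_Imatinib.

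HMGB2, a DNA-bending protein that is most abundant in dividing cells, varied more than HMGA1 and had its highest levels in dT with YM115 listed first, although the test of place did not pass. With YM115 listed first its level was 4835, 3135 and 5665 CPM with DMSO, 2464, 2119 and 4798 CPM with imatinib, 3160, 3535 and 4688 CPM with trametinib, and 3930, 3736 and 2856 CPM with YM115 itself. These 12 libraries averaged 3743 ± 1076 CPM. The 36 libraries in which YM115 was not listed first ranged from 11.6 to 3139 CPM with a mean of 1463 ± 896 CPM, and 10 of them lay above the lowest of the 12. With YM115 listed second beside another compound the mean was 1406 ± 1057 CPM (n = 9), close to the 1482 ± 858 CPM of libraries with no YM115 (n = 27).

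The listed orders of HMGB2 did not overlap for 2 of 6 couples in dT. DMSO_YM115 had 1030 ± 815 CPM and YM115_DMSO 4545 ± 1289 CPM, and Trametinib_YM115 had 1150 ± 1163 CPM and YM115_Trametinib 3794 ± 796 CPM (SD, n = 3 each). The joint test of listed place gave a log2 difference of 2.11 for YM115, 0.62 for imatinib and 0.48 for trametinib, with an unadjusted p of 0.0209 and an adjusted p of 0.109, and did not pass. The 12 libraries with YM115 listed first were also the deeper ones, with 456524 ± 114991 counts against 305104 ± 93858 in the 36 others; the part of depth was not tested. The YM115 drug term, which ignores place, was 1.00 ± 0.40 (adjusted p = 0.200).

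In Bio the levels of HMGB2 by place of YM115 overlapped. Libraries with YM115 listed first had 816 ± 894 CPM and a count in 9 of 12 libraries, those with YM115 listed second only 1216 ± 895 CPM, and those without YM115 943 ± 1340 CPM. In that screen HMGB2 was counted in 6 of 14 libraries of run 1 and in 14 of 15 of runs 2 and 3 each. The joint test gave an adjusted p of 0.382, and the YM115 term was -0.24 ± 1.12 (adjusted p = 0.956). Whether the effect of listed place differed between the screens was not tested.

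**Figure D4:**
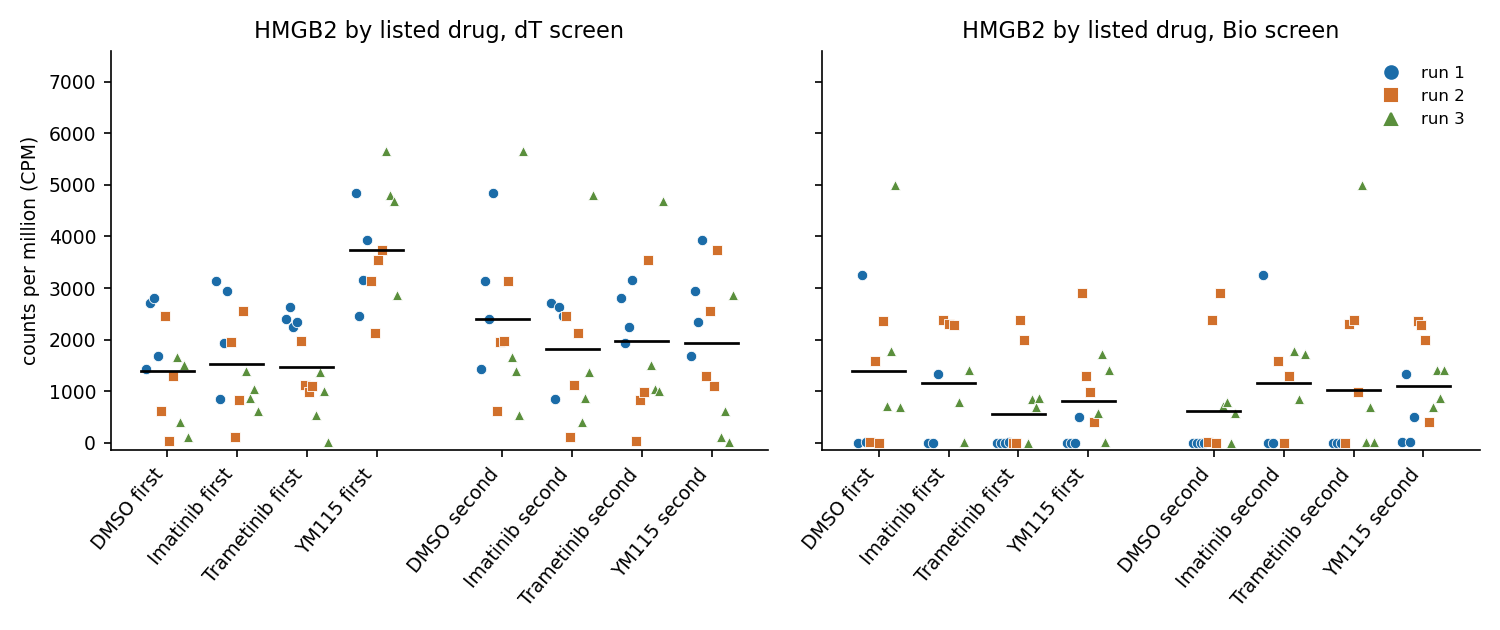
HMGB2 level (CPM) by the compound listed first and, at the right of each panel, by the compound listed second, in dT and Bio, with 1 point per library in the shape and colour of its run and a bar at the mean. In dT the 12 libraries with YM115 listed first lie from 2119 to 5665 CPM against a mean of 1463 CPM in the 36 others, while in Bio YM115 listed first has a mean of 816 CPM and overlaps the other groups.

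HMGB1, the most widely expressed member of its family, was counted in all dT libraries at 2.71 to 362 CPM. Its level with YM115 listed first was 207 ± 109 CPM in dT and 218 ± 152 CPM in Bio (SD, n = 12 each). With DMSO listed first it was 109 ± 88.9 CPM in dT (n = 12) and 27.7 ± 55.6 CPM in Bio (n = 11). Imatinib listed first gave 141 ± 104 CPM in dT and 71.7 ± 60.03 CPM in Bio, and trametinib listed first gave 88.8 ± 69.5 and 106 ± 140 CPM. The ranges overlapped in both screens, and the joint test of place gave an adjusted p of 0.508 in dT and 0.590 in Bio. In dT 1 of 6 couples did not overlap between orders, beside the 11.3% of couples over all genes: Trametinib_YM115 had 70.5 ± 22.8 CPM and YM115_Trametinib 220 ± 91.6 CPM.

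In Bio HMGB1 had 0 counts in the 3 DMSO_DMSO libraries, which together allow up to 8.72 CPM (3 counts), so no fold was computed. It was counted in 6 of 6 libraries of YM115 alone, at 22.3 to 417 CPM, in 2 of 6 of imatinib alone and in 3 of 5 of trametinib alone. DMSO_DMSO was the shallower condition, at a mean of 114694 counts per library. YM115 alone had 212220.5, imatinib alone 197849 and trametinib alone 192330. The part of depth was not tested, and the share of all genes with this pattern was not counted. In dT DMSO_DMSO had 27.7, 74.6 and 75.6 CPM and YM115 alone 213 ± 126 CPM, which overlapped. The fitted differences from DMSO_DMSO did not pass in Bio (adjusted p of 0.350 to 0.395 over 6 contrasts) or in dT (0.470 to 0.958).

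HMGN1 and HMGN2, the major nucleosome-binding members, were counted in most dT libraries but with wide spread. HMGN1 reached 802 CPM in 1 library of Trametinib_Imatinib and 648 CPM in 1 of YM115_YM115, while its median over dT was 59.1 CPM. In DMSO_DMSO it had 5.5, 0 and 121 CPM. The listed orders of HMGN1 were apart in dT for 1 of 6 couples, beside the 11.3% of couples over all genes. That couple had 13.1 ± 12.3 CPM in DMSO_YM115 and 105 ± 52.6 CPM in YM115_DMSO. Its drug terms in dT were 0.94 ± 0.72 (imatinib), 0.54 ± 0.76 (trametinib) and 1.05 ± 0.82 (YM115), with adjusted p of 0.620 to 0.887.

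HMGN2 had 0, 22.9 and 10.1 CPM in DMSO_DMSO of dT, and 576 CPM at most, in 1 library of Trametinib_DMSO. In Bio it was counted in 6 of 6 libraries of imatinib with trametinib, at 25.1 to 147 CPM, against 1 of 3 of DMSO_DMSO, 1 of 6 of imatinib alone and 3 of 5 of trametinib alone. That pair was also the deepest Bio condition, at a mean of 377068 counts per library. DMSO_DMSO had 114694, imatinib alone 197849 and trametinib alone 192330. The part of depth was not tested, and the share of all genes with this pattern was not counted. In dT the same pair had 2.27 to 328 CPM, and it overlapped imatinib alone (0 to 57.3 CPM) and trametinib alone (0 to 576 CPM). The fitted difference of that pair from DMSO_DMSO was 5.18 ± 2.90 in Bio (adjusted p = 0.364) and 2.67 ± 2.27 in dT (adjusted p = 0.539). The interaction in Bio was 2.26 ± 2.97 (adjusted p = 0.997).

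HMGB3, HMGN3 and HMGN4 were too sparse for levels by condition. HMGB3 had 697 counts in dT, of which 170 were in 1 library of Trametinib_Imatinib (633 CPM), and 1 count in Bio. HMGN3 had 146 counts in 13 dT libraries, while in Bio 119 counts were in 1 library of YM115_DMSO (730 CPM) and 113 in 1 of Trametinib_Trametinib (644 CPM). HMGN4 had 171 counts in 9 dT libraries and 0 of 11320349 counts in Bio, which allows up to 0.265 CPM over the pooled libraries. A few reads in a few libraries thus set these levels, and the limits cover counting error only.

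HMGN4 was sparse, and its 1 call rests on few libraries. In dT it was counted in 2 of 21 libraries with imatinib, with 9 and 2 counts, and in 7 of 27 libraries without, with 68, 41, 28, 11, 10, 1 and 1 counts. The fitted log2 difference was -4.14 ± 1.07 (edgeR adjusted p = 0.0224). It was -2.27 without run 3 (adjusted p = 0.833), with no value when run 1, run 2 or the replicate block was left out, and the adjusted p was 0.0549 with no filter on low counts. Most counts that let HMGN4 pass the filter lay in libraries without imatinib, and false calls on simulated data lay mostly in genes this sparse, so the call is not read as a change. Of 3930 genes 2.88% were called for imatinib in dT. For trametinib 1.37% and for YM115 2.62% were called in dT, with 0 HMG genes among them. In Bio 2.34% (imatinib), 1.94% (trametinib) and 2.74% (YM115) of 1754 genes were called, again with 0 HMG genes, of which 5 were tested there.

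HMGN3, also sparse, had 1 call in the test of whether a drug term differs between screens. Imatinib differed by 5.27 ± 1.35 (dT minus Bio, edgeR adjusted p = 0.0113), where 5.84% of 4705 genes were called. In dT HMGN3 was counted in 8 of 21 libraries with imatinib and in 5 of 27 without, and in Bio in 0 of 18 with and 2 of 26 without. The values behind it are thus counts in 15 libraries, of which the 2 Bio libraries, both of run 3, held 232 counts. The adjusted p was 0.0949 with no filter on low counts, and there was no value when run 1, run 3 or the replicate block was left out, so this call is not read as a difference either. For trametinib (4.57% called) and YM115 (6.59% called) no HMG gene passed. HMGA1 differed between screens by -0.06 ± 0.22 for imatinib, -0.15 ± 0.23 for trametinib and -0.23 ± 0.22 for YM115 (adjusted p of 0.614 to 0.925).

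Over 31 comparisons, 190 tests of HMG genes remain when the 10 dT contrasts of HMGA1 that involve DMSO_DMSO, the libraries that selected it, are set aside. Of these 2 passed (1.05%), the calls of HMGN4 and HMGN3, against 1.59% of all tests of all genes. HMGB1, HMGB2, HMGB3, HMGN1 and HMGN2 passed in 0 edgeR comparisons. At an unadjusted p under 0.05 there were 21 tests, 8 of HMGB1, 7 of HMGN4, 3 of HMGA1, 2 of HMGB2 and 1 of HMGN3. DESeq2 called 11, 6 of them HMGB1 in Bio, where DMSO_DMSO held 0 counts of that gene. The 1.59% is an edgeR share after adjustment and is no measure for these 2 counts. Both outcomes were common over all genes in the contrasts with DMSO_DMSO given above, so the 2 counts are not read as a result about HMG genes. For HMGB1, HMGB2, HMGN1 and HMGN2 the SE of a single drug contrast in dT was 0.87 to 2.33 on the log2 scale. These SEs are derived from the test statistic and are rough. A change of several-fold could have been missed at this depth and spread.

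The separate DMSO controls gave another level of HMGA1. In dT they had 4623, 1792 and 1663 CPM, all below the lowest in-screen DMSO_DMSO library of 8898 CPM. In Bio they had 7554, 2138 and 2511 CPM against a lowest in-screen value of 9498 CPM, also without overlap. The fitted log2 difference (separate minus in-screen) was -1.87 ± 0.30 in dT, given without a test, and -1.68 ± 0.86 in Bio (adjusted p = 0.328). That fit paired the separate controls with runs by their number, which no label ties to a run. Of all genes, 0.116% of 6917 were called in dT and 0.0487% of 6158 in Bio, in Bio with 0 HMG genes. Of genes counted in at least 3 of the 6 control libraries, 2.71% in dT and 2.48% in Bio were lower in every separate library. In dT the separate controls also lay below all 45 libraries with a drug, of which the lowest had 5395 CPM. The share of all genes that did so was not counted, so nothing is read from it.

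The direction of the other members was mixed in dT. HMGB3 was lower in the separate controls there, at 11.1 ± 10.4 against 63.4 ± 70.0 CPM, with overlap. HMGB2 was 1064 ± 106 CPM in the separate dT controls and 1235 ± 549 CPM in the screen, and 403 ± 125 against 241 ± 406 CPM in Bio. HMGN1 was 291 ± 162 CPM in the separate and 42.2 ± 68.3 CPM in the in-screen dT controls, and 235 ± 40.6 against 208 ± 361 CPM in Bio. HMGN2 had 150 ± 82.6 against 11.01 ± 11.5 CPM in dT and 272 ± 240 against 4.07 ± 7.06 CPM in Bio (SD, n = 3 each). Its levels did not overlap in either screen, but 36.3% of genes in dT, 58.7% in Bio and 22.7% in both were likewise higher in every separate library, and the median fitted difference over all genes was 3.39 and 5.34, so higher levels there were not particular to HMGN2. Neither HMGN1 (adjusted p = 0.346 and 0.886) nor HMGN2 (0.343 and 0.338) passed.

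Libraries of the separate controls differed in make-up as a whole. Mitochondrial transcripts took 10.2 to 36.9% of their counts in dT and 5.10 to 28.1% in Bio, against 2.38 to 7.33% in the in-screen libraries. They had 5501 to 10361 detected genes against 1030 to 5110. Mitochondrial genes were also left out, a setting chosen after seeing the data. HMGA1 then had 3460 ± 1461 CPM in the separate and 14051 ± 4117 CPM in the in-screen dT controls. The fitted differences were -1.87 in dT and -1.67 in Bio, given as a description. The part of mitochondrial content and of other differences in preparation was not tested.

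**Figure D5:**
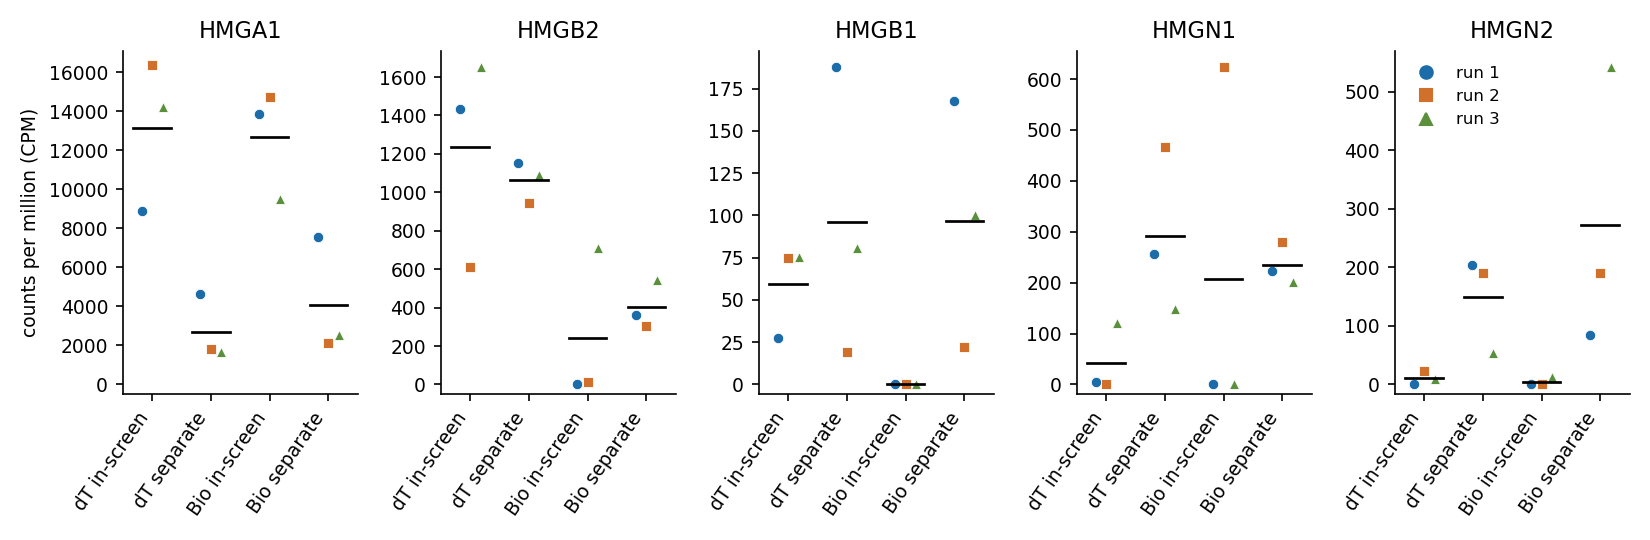
Levels of HMGA1, HMGB2, HMGB1, HMGN1 and HMGN2 (CPM, each panel with its own linear axis) in in-screen DMSO_DMSO and in the separate DMSO controls, 3 libraries each, with a bar at the mean, in dT and Bio. HMGA1 is lower in every separate library (1663 to 4623 against 8898 to 16379 CPM in dT), while HMGN2 is higher in every separate library (54.5 to 203 against 0 to 22.9 CPM in dT), as are 36.3% of genes in dT.

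Other chromatin genes were described through 4 lists. Their shares of tests passed stand beside 1.59% over all genes and the same 31 comparisons. Of 15 other HMG and HMG-box genes, 14 were counted in dT and 13 in Bio, but 4 and 1 in at least 50% of libraries. SSRP1, the HMG-box subunit of the histone chaperone FACT, led them with 332 ± 354 CPM in dT and 372 ± 759 CPM in Bio, and 6 of 248 tests passed (2.42%). Of 7 linker histones, H1-4 led with 3294 ± 2828 CPM in dT and 1835 ± 2164 CPM in Bio, and 2 of 103 tests passed (1.94%). Of 5 replacement histones, H2AX had 125 ± 342 CPM in dT, and 3 of 94 tests passed (3.19%). Of 17 histone chaperones, SET had 1193 ± 510 CPM in dT and 1140 ± 1077 CPM in Bio, and 6 of 419 tests passed (1.43%). As background, transcripts of replication-dependent histones mostly lack the poly(A) tail to which a poly-dT primer anneals.

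The 4 called genes that were counted in at least 50% of the libraries of a screen in which they were called are given by name, and their calls there were for a difference between screens. H1-10, a linker histone variant, was counted in 43 of 48 dT and 18 of 44 Bio libraries, with an imatinib difference (dT minus Bio) of -6.41 ± 1.57 (adjusted p = 0.00712). UBTF, an HMG-box factor of ribosomal RNA genes, differed by -7.46 ± 2.26 for imatinib and -7.41 ± 2.44 for YM115 (adjusted p = 0.0322 and 0.0478), with 32 of 48 dT and 13 of 44 Bio libraries counted. PTMA, an acidic histone-binding protein, differed by 6.59 ± 1.89 for imatinib (adjusted p = 0.0229), and NAP1L1, a nucleosome assembly protein, by -5.88 ± 1.81 for trametinib (adjusted p = 0.0412). Log2 differences of this size came with a count of 0 in many Bio libraries.

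Across the 48 dT libraries, HMGB2 and HMGN1 ran most alike among the 4 members counted in at least 90% of them, with a Spearman rho of 0.46. HMGB1 had a rho of 0.27 with HMGB2 and 0.14 with HMGN1, and HMGA1 had -0.20, -0.18 and -0.08 with HMGB1, HMGB2 and HMGN1. Among 558 genes counted in at least 90% of dT libraries, the most like HMGB2 was NUCKS1, a nuclear DNA-binding protein, with a rho of 0.62, and the most like HMGA1 were MRPS18B (0.39), MFSD2B (0.38) and PRR13 (0.38). MFSD2B shares sequence with HMGA1. SF3B2 was most like HMGB1 (0.45), and HMGB2 most like HMGN1. These are descriptions over libraries that share depth and run.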

How the data were processed

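Combi-Seq libraries of K562 cells were analysed from the table of raw counts that the authors deposited, 24965 genes by 102 libraries, holding whole numbers without normalisation. The submitters' processing notes name STAR 2.4.2a and GRCh38. Strand use in counting is not given in the sources used here, nor is a step that collapses reads by molecular identifiers, so limits from counts cover counting error only. The labels do not tie a listed drug to an injection source, so drugs are referred to by their listed place. Symbols and positions were taken by Ensembl identifier from GENCODE release 29 (GRCh38), and promoters from RefSeq (GRCh38.p14).

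The HMG genes, the gene lists and the tests were chosen with earlier results of these data known. All 8 genes were named in every comparison; a gene of the other lists was named where it was called and counted in at least 50% of the libraries of a screen entering that comparison, or where it led its list. Libraries of the pooled screens were kept with 1000 or more genes detected and no more than 15% of counts from the 29 mitochondrial genes; 48 dT and 44 Bio libraries passed, at 127042 to 759756 and 81806 to 780143 counts. Levels are counts scaled to a common total over all genes of a library (CPM).

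Tests across genes were run in R 4.3.3 with the quasi-likelihood test of edgeR 4.0.16 (glmQLFit, glmQLFTest) after filterByExpr and TMM scaling, 1 fit per screen with run as a block, and Benjamini-Hochberg adjustment over all genes tested, with a threshold of 0.05. The fits gave drug terms, conditions against DMSO_DMSO, drug products, listed place, separate controls and drug by screen. The separate controls carry a number but no run name, and that number was taken as their run, an assumed pairing. An SE of these fits is the absolute log2 difference over the square root of the test's F statistic. It is rough, and unreliable where counts are few. Alternatives were DESeq2 1.42.0, other scalings, no filter, a filter of 50% of libraries, pseudogenes summed with their gene, all libraries kept, no block and each run left out. Leaving out mitochondrial genes and permuting across runs were added after the data had been seen. HMGA1 in Bio was tested by exact permutation within runs. The pairing comes from the study's design of 3 raw files per screen; residuals of same-run libraries had a mean correlation of 0.0244 (dT) and 0.0288 (Bio), against -0.0122 and -0.0144 between runs, and 1.67% and 5.13% of same-run pairs exceeded 0.1. Of 102 replicate pairs 0 were identical, and chi-square over degrees of freedom was 5.55 or more. Scripts were tested on simulated data, where false calls lay mostly in genes counted in under 50% of libraries, the kind HMGN3 and HMGN4 are. Python 3.11.15 with numpy 2.4.6, pandas 2.3.3, scipy 1.17.1 and matplotlib 3.10.9 was used.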

Additional observations from a re-analysis of the deposited data

Results flagged for a closer look

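A search for single libraries far from the rest of their group covered 30 groups of HMG gene and condition, of which chance marks about 1 in 20, and marked 3. HMGB1 had 292 CPM in run 2 of Imatinib_Trametinib in dT, where the other libraries of imatinib with trametinib had 14.9 to 90.7 CPM. HMGN1 had 802 CPM in run 1 of Trametinib_Imatinib in dT, where the others had 9.10 to 242 CPM. HMGA1 had 3621 CPM in run 1 of Trametinib_DMSO in Bio, where the other 4 libraries of trametinib alone had 7324 to 8124 CPM.

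The imatinib term of HMGN3 differed between the screens by 5.27 on the log2 scale (dT minus Bio), from counts in 13 dT and 2 Bio libraries. HMGB2 had 552 counts, or 5877 CPM, in run 1 of DMSO_Trametinib in Bio, a library left out for its 808 detected genes. That is above the 0 to 709 CPM of in-screen DMSO_DMSO in Bio, and above all Bio libraries that were kept.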

How the results depend on the processing

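Calls were recounted under other settings for 31 comparisons. Counts of HMGA1 in dT against or through DMSO_DMSO come from the libraries that selected the gene, and nothing is read from them. TMMwsp scaling, pseudogenes summed with their gene, all libraries kept and mitochondrial genes left out moved 0 of the counts they could be run on. With DESeq2's size factors 1 moved: HMGA1 was called for imatinib with trametinib in dT (1 against 0). With DESeq2's own test 14 moved: HMGA1 was called in the 5 further dT contrasts with DMSO_DMSO (1 against 0 each), HMGB1 and HMGB2 for imatinib alone (2), HMGA1 and HMGB1 for YM115 alone (2), and HMGB1 in the 3 pairs and in the imatinib by YM115 term in Bio (1 each), HMGN3 for trametinib and YM115 by screen (1 each), and HMGN4 was not called for imatinib (0, its adjusted p was not computed). With no filter on low counts the calls of HMGN4 (adjusted p = 0.0549), HMGN3 (0.0949) and the 4 of HMGA1 went to 0, and HMGB2 was called for listed place in dT (1). With genes counted in at least 50% of libraries, HMGN4 and HMGN3 were not tested (0 calls) and HMGA1 was called for trametinib alone in dT (1).

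Leaving out a run gave 0 to 1 calls per comparison. The 4 HMGA1 calls in dT come from the libraries that selected the gene, and nothing is read from them. They were lost without run 2 and without run 3, and both interactions also without run 1. Fitted values without these runs were -0.97 and -0.95 for YM115 alone and -1.51 and -1.68 for the separate controls. For the interactions they were 1.10 to 1.296 and 0.75 to 1.34. HMGN4 kept no call without any 1 run (-2.27 without run 3) and HMGN3 was called only without run 2. Without run 1 HMGB3 was called for listed place in dT. Without the replicate block, 29 of 31 counts were as with it, and HMGN4 for imatinib and HMGN3 by screen were not tested (0 calls).

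The exact tests of HMGA1 in Bio had adjusted p of 0.0536 to 0.214 when permuted across runs without the replicate block, 0.0741 to 0.296 with all libraries kept, and 0.111 to 0.296 without mitochondrial counts. With a run left out their smallest possible p is 0.111 or more, so they cannot pass. Fitted values of HMGA1 in Bio kept their sign for the single drugs and interactions under all settings run, and trametinib with YM115 against DMSO_DMSO spanned -0.66 to 0.01. Depth limits HMGB3, HMGN3 and HMGN4, which rest on a few libraries with counts.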
